A study of Mus musculus with 26 samples.

Results

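The end of a chemical reprogramming course was set against established pluripotent cells that the same study had made. The members are 2 of 26 mouse RNA-seq libraries, chosen by their labels: cells on day 36 and cells on day 40 of the course that received all the chemicals. The other side is 6 libraries of CiPSC (chemically induced pluripotent stem cells), labelled only as iPSCs and numbered 1 to 6. The study also holds MEF (mouse embryonic fibroblasts, the starting cells), earlier days of the full course, and courses without BrdU (bromodeoxyuridine, a thymidine analogue) or without Chir (a small molecule that blocks the GSK3 kinase). MEF and days 6 to 30 of the full course are used below for orientation and enter no test. The labels give no strain, sex, dose, clone or passage for either side. They do not say whether the 6 CiPSC libraries came from separate lines, so the p-values measure the spread between these libraries.

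Pluripotent cells of the mouse are held in a naive state by a network of transcription factors centred on Pou5f1, Sox2 and Nanog, with support from LIF signalling through Stat3. Cells on a chemical course are known to pass through a state that resembles extraembryonic endoderm, the lineage that lines the yolk sac and lays down its basement membrane. Gata4, Gata6 and Sox17 drive that lineage in the embryo and oppose Nanog. The question put to the data was which of these programmes, and which traits of the fibroblast, still separated the last 2 days of the course from established lines.

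The deposited values are whole numbers with nearly the same distribution in every library, and were treated here as scores normalized to 1 common distribution. Every library has a total between 4143561 and 4162600, and exactly 10 genes in each sit at the maximum of 21988, so a gene at this ceiling cannot show more. High values come in steps shared by all libraries (5529, 8314 and 11331 recur), and depth is unknown. Genes listed at 0 made up 6.04% of the day 36 library and 5.59% of the day 40 library, against 10.4% to 14.2% in CiPSC. Across genes, the day 36 and day 40 libraries correlated at r = 0.962, and the CiPSC libraries among themselves at r = 0.895 to 0.934. Late libraries correlated with CiPSC at r = 0.721 to 0.772, and with MEF at r = 0.778 on day 36 and 0.775 on day 40. Such correlations describe these libraries, since genes are not independent replicates. Days 36 and 40 are 1 library each and not replicates of 1 day, so the spread between them holds change with time. Whether CiPSC libraries were made and read together with the course is not stated, and such a batch cannot be told apart from the group. These are bulk samples, in which fewer cells of a type and less RNA per cell cannot be told apart.

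A large share of the measured genes separated the late course from CiPSC. Of 16141 genes tested, 7548 (46.8%) passed an adjusted p of 0.05 in limma's moderated test on log2(value + 1), with 3450 (21.4%) higher and 4098 (25.4%) lower on days 36 and 40. The median log2 change over all genes was -0.10. In 4230 genes (26.2%) both late libraries lay above all 6 CiPSC libraries, and in 4593 (28.5%) both lay below. All counts of list members below stand against these shares and this median. Rises and falls, here and below, are differences from CiPSC and not changes along the course. The balance between them depended on the scale. When the libraries were rescaled by median ratios, the median of all genes moved to 0.15, and 4311 genes were called higher and 3168 lower, so that 57.6% of calls were rises in place of 45.7%. Without day 36 the test left 4381 calls, and without day 40 it left 5033.

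**Figure D1:**
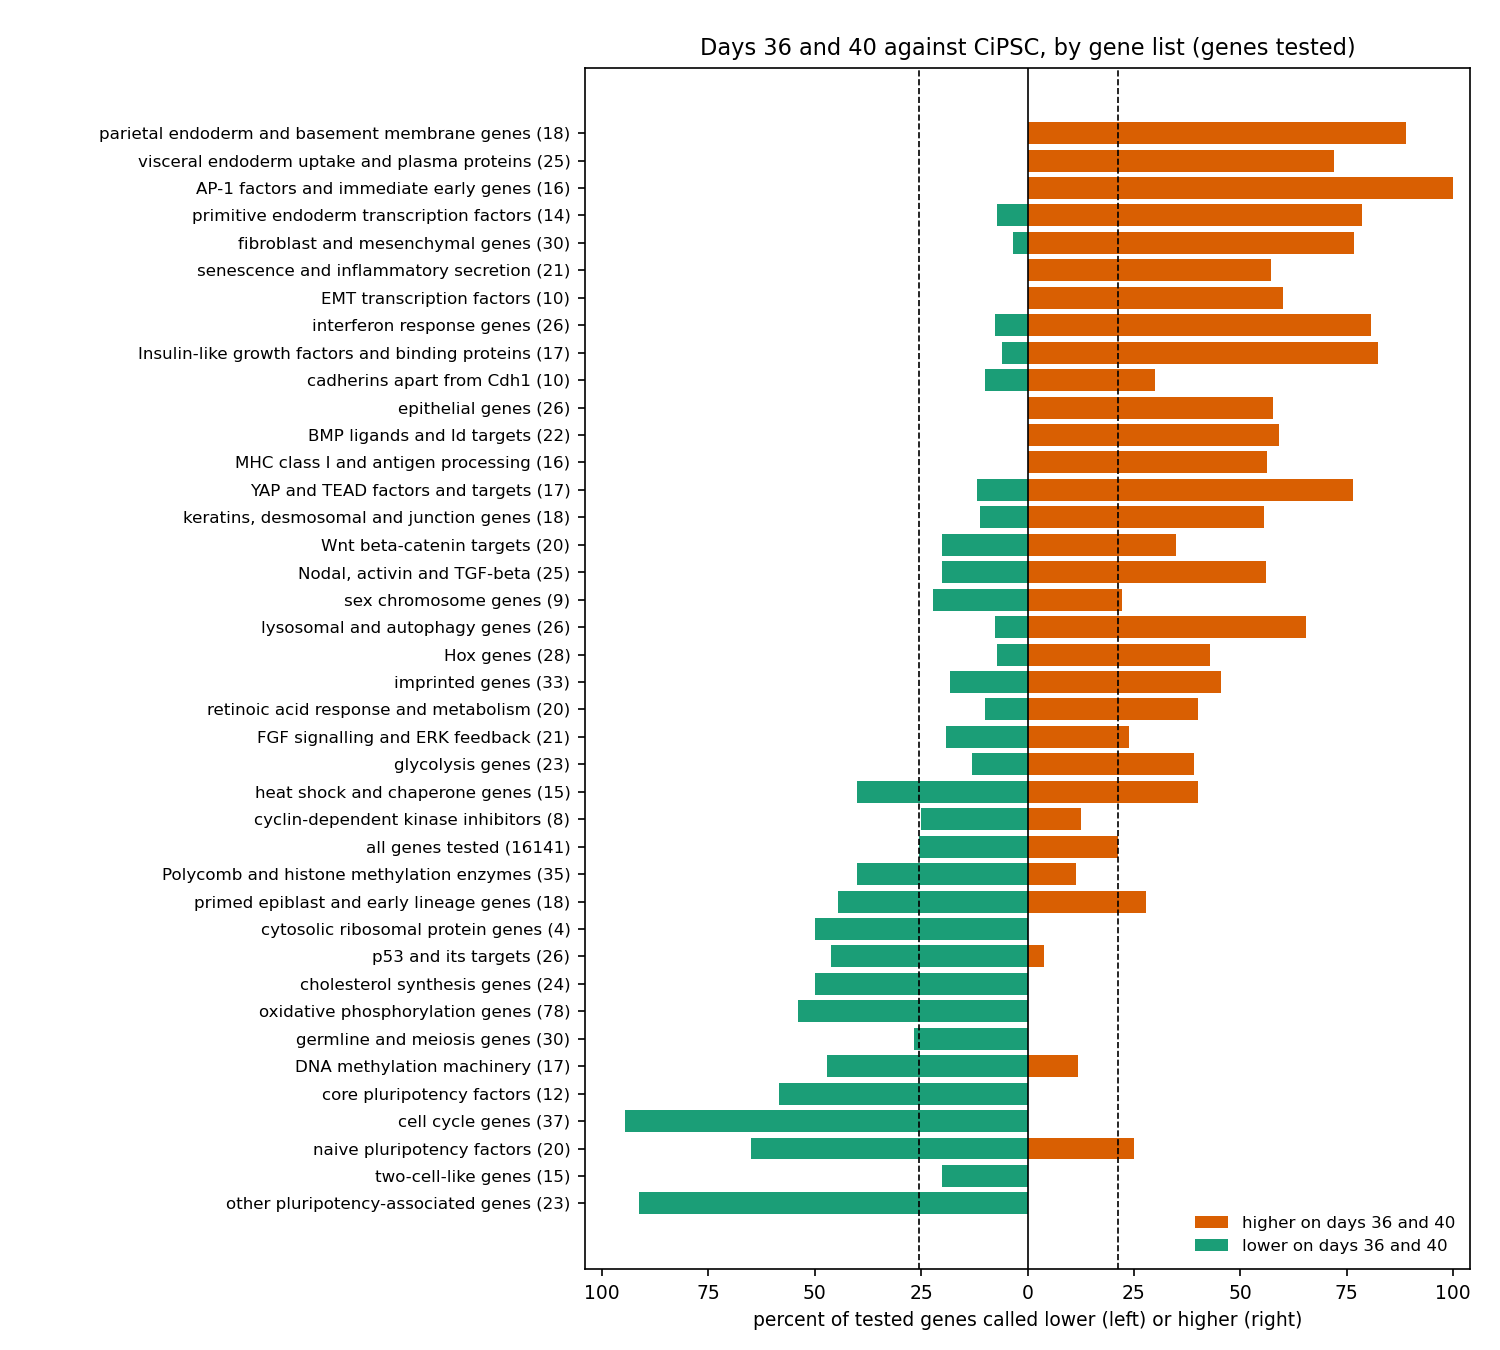
Share of the tested genes of each list called higher (right, orange) or lower (left, green) on days 36 and 40 than in the 6 CiPSC libraries, with the number of genes tested in brackets and lists ordered by median log2 change. The dashed lines mark the 21.4% and 25.4% of all genes. Basement membrane, AP-1 and endoderm lists lie far to the right, and cell cycle and pluripotency lists to the left.

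The 12 largest rises belonged to genes that stood at 110 or less in every CiPSC library. Igfbp1, a liver-secreted carrier that restrains insulin-like growth factors (chromosome 11, 7197782 to 7202546, GRCm38), stood at 2277 on day 36 and 3630 on day 40 and is listed at 0 in all 6 CiPSC libraries. Flt1, a receptor for vascular endothelial growth factor (chromosome 5, 147561604 to 147726011), stood at 5530 on both days, against 0 to 10 in CiPSC (log2 change 11.06 ± 1.05 SE, adjusted p = 9.56e-05). Car4, a carbonic anhydrase of the cell surface, had 2628 and 1792 against 0 to 1, and the calcium-binding S100g had 4210 and 3420 against 1 to 4. Aqp8, a water channel, stood at 1874 and 1438 against 0 to 7. In each of these genes the groups lay far apart. Gm37375 (chromosome 9) and Gm37385 (chromosome 1), both short models of unknown coding status, also ranked among the top rises. Their values ran almost in parallel, with 1166 and 1178 on day 36 and 1046 and 1058 on day 40, so their reads may be shared and they are uncertain as separate genes. The others of the 12, Krt19, Pth1r, Fosb, Igf2 and H19, are described with their lists.

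The largest falls were in genes that the late course barely expressed. Cdx1, a homeobox factor that answers to Wnt signals, had 1 on both days, against 182, 214 and 260 as the lowest, median and highest CiPSC values (log2 change -6.78 ± 0.22, adjusted p = 4.97e-06). Krt42, a type I keratin, stood at 1 and 0, against 114 to 244. The ion transporter Slc4a10 is listed at 0 on both days, against 36 to 86 in CiPSC, and Msc, a bHLH factor, had 1 and 0 against 42 to 210. Laptm5, a lysosomal membrane protein known from blood cells, stood at 4 and 12 against 283 to 620. Smtnl1, a smoothelin-like muscle protein, had 2 and 3 against 102 to 246. Gm8888, a processed pseudogene on chromosome 15, is listed at 0 in both late libraries, in MEF and on days 6 to 30, and had 158 to 340 in CiPSC. Pseudogene reads may belong to a parent gene, which makes Gm8888 and the likewise pseudogenic Gm10221 (3 and 8, against 280 to 429) uncertain. A full absence of this kind was rare. Of all genes, 16 were at 0 on both days and at least 10 in every CiPSC library, and 6 of these were also at 0 in MEF and on days 6 to 30. The opposite pattern, at least 10 on both days and 0 in all 6 CiPSC libraries, held for 257 genes. Of these, 140 had at least 10 in MEF and 88 were at 0 in MEF. The 2 patterns ask for different numbers of libraries at 0, so their counts are not directly comparable. Of the genes tested, 433 were at 0 in all 6 CiPSC libraries and 282 on both late days.

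The core pluripotency factors were present on days 36 and 40, and several had not reached the CiPSC level. Of 12 tested, 7 were lower, none higher and 5 not called (median log2 change -1.20). Pou5f1 (chromosome 17, 35506018 to 35510772), the factor no pluripotent cell can do without, had 553 on day 36 and 1046 on day 40, against 4501, 4730 and 5522 as the lowest, median and highest CiPSC values. The change was -2.66 ± 0.22 (adjusted p = 5.04e-05), and no CiPSC value overlapped the late ones. Nanog (chromosome 6, 122707489 to 122714633), which locks in the naive state, had 422 and 771 against 2762, 4869 and 8314 (-3.17 ± 0.44, adjusted p = 0.000632). Sox2, the partner of Pou5f1, had 371 and 660 against 1490, 2007 and 2167 (-1.95 ± 0.22, adjusted p = 0.000226). Foxd3, a repressor needed by the epiblast, had 9 and 2 against 82 to 165 (-4.37 ± 0.48), the deepest fall of the list. Sall4 had 352 and 488 against 694 to 1302 (-1.18 ± 0.25), a call that ended without day 36. Trim28, a corepressor named after its values were seen, fell as well (2543 and 2758, against 4201 to 6860).

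The 5 core factors that were not called lay within or near the CiPSC range. The RNA-binding protein Lin28a had 278 and 214, against 89 to 266 in CiPSC (0.45 ± 0.41, adjusted p = 0.402). Its paralogue Lin28b had 105 and 110 against 100 to 118 (-0.03 ± 0.15, adjusted p = 0.899). Utf1 (114 and 181 against 96 to 510), Tdgf1 (210 and 470 against 311 to 1514) and Mycn (232 and 203 against 159 to 688) also overlapped CiPSC; these 3 and Lin28b were picked out after their values were seen. None of these 5 p-values shows that the groups were alike.

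**Figure D2:**
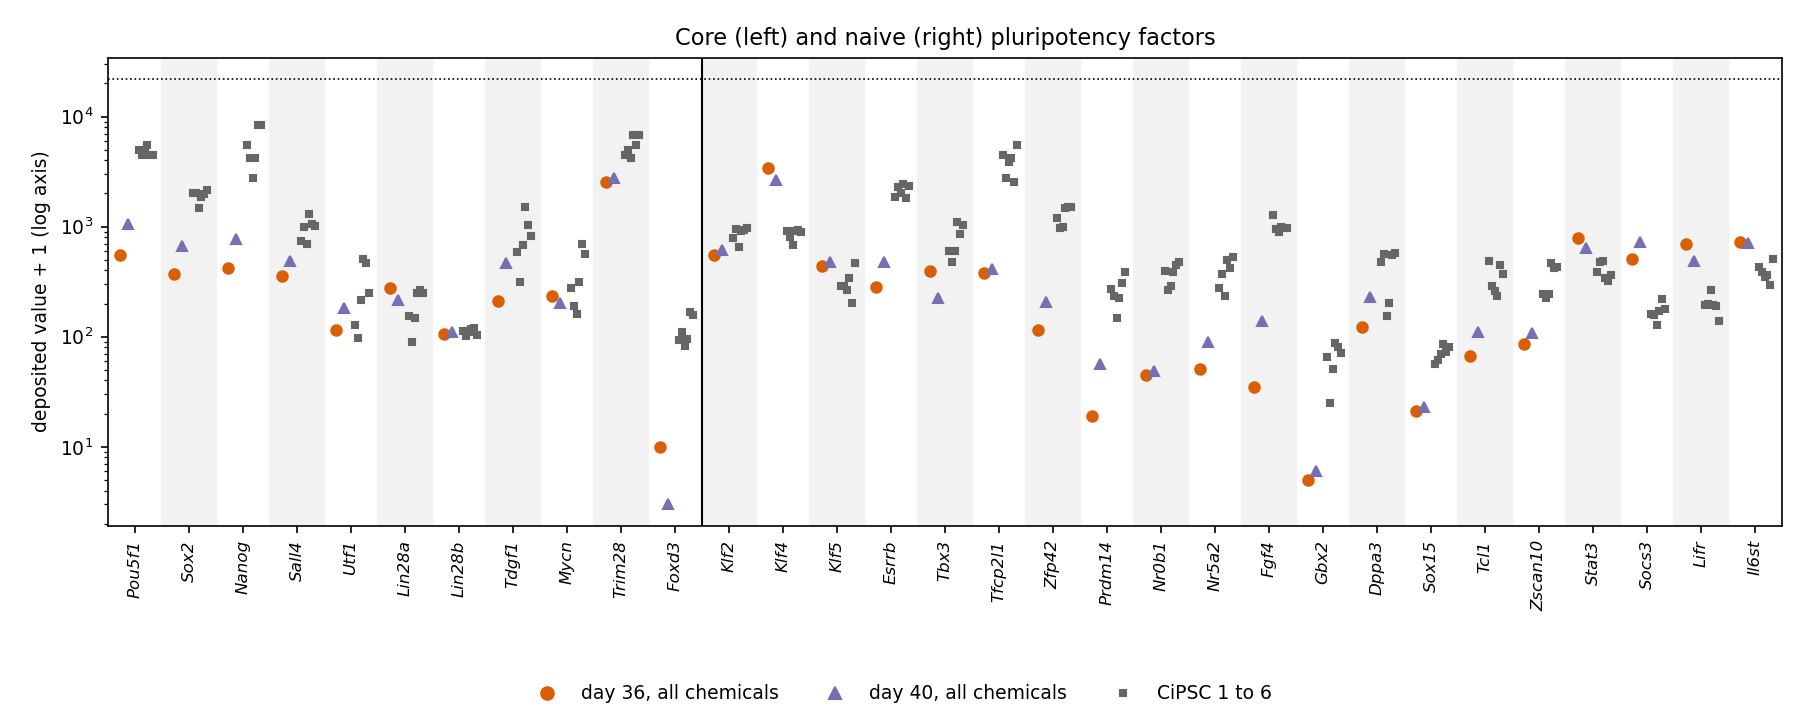
Deposited value + 1 (log axis) of core (left) and naive (right) pluripotency factors on day 36 (circle), day 40 (triangle) and in the 6 CiPSC libraries (squares, CiPSC 1 to 6 from left to right). The dotted line is the ceiling. Pou5f1, Nanog, Esrrb, Tfcp2l1, Zfp42 and Fgf4 lie below all squares, Lin28b lies among them, and Klf4, Socs3 and Lifr lie above.

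Most naive factors were lower than in CiPSC, and a few were higher. Of 20 tested, 13 were lower and 5 higher (median -1.71). Fgf4, a growth factor made by the epiblast, had 34 and 138 against 884 to 1272 (-3.84 ± 0.42), and had been listed at 0 on day 30. Tfcp2l1 had 378 and 413 against 2550, 4027 and 5530 (-3.25 ± 0.29, adjusted p = 6.46e-05). Esrrb, a nuclear receptor that can stand in for Nanog, had 279 and 475 against 1832 to 2414 (-2.53 ± 0.20). Nr0b1 had 44 and 48 against 262 to 480 (-2.97 ± 0.24), and Prdm14, a repressor of FGF signalling and of DNA methylation, 18 and 56 against 146 to 390 (-2.94 ± 0.45). The higher members were Klf4 with 3414 and 2628 against 682 to 923 (1.82 ± 0.155, adjusted p = 5.48e-05), Socs3, a feedback inhibitor of LIF signalling (504 and 720 against 126 to 218, 1.86 ± 0.21), and the receptor Lifr (700 and 491 against 139 to 262, 1.60 ± 0.23). The coreceptor Il6st (725 and 713 against 291 to 510, 0.91 ± 0.19) and Stat3 (794 and 642 against 318 to 486, 0.87 ± 0.19), the fifth, were higher by less than 1 log2 unit, and the call of Il6st ended without day 36. Klf4, Il6st and Stat3 were also high in MEF, at 1150, 1797 and 1303. Without day 36 the list had 3 higher members.

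Zfp42 (Rex1), a common marker of naive cells, had 114 on day 36 and 206 on day 40, against 972, 1333 and 1515 in CiPSC (-3.02 ± 0.27, adjusted p = 6.43e-05). Both late libraries lay below every CiPSC library. Its promoter is shown because it is the only one of the 26 core and naive factor promoters available that holds the octamer ATGCAAAT, the DNA word bound by Pou5f1, on either strand. The octamer occurs in 1.75% of 27025 promoters of the same length. The sequence runs from 250 bases before to 50 after the start of the gene (RefSeq, GRCm38.p6, chr8:43306960-43307259, minus strand), with the octamer in capitals.
Zfp42: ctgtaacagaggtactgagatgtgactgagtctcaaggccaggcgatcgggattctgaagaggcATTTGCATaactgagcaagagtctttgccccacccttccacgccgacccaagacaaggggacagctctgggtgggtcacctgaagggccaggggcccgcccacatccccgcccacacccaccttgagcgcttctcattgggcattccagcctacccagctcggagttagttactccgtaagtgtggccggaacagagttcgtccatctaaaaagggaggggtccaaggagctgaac

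Other genes that mark pluripotent cells lagged as a block. Of 23 tested, 21 were lower, none higher (91.3%, median -1.95). Dppa5a had 798 and 1150 against 8307 to 21988, the ceiling, which 4 of the 6 CiPSC libraries reached (-4.05 ± 0.49). Tdh, a threonine dehydrogenase on which mouse stem cells depend, had 272 and 284 against 1924 to 3096 (-3.08 ± 0.18, adjusted p = 8.88e-06). Ooep, an oocyte RNA-binding protein, had 30 and 55 against 488 to 801 (-4.04 ± 0.25), and the junction protein Jam2 had 68 and 137 against 881 to 2041 (-3.71 ± 0.35). Trim71, a partner of the Lin28 and let-7 axis, had 254 and 217 against 776 to 1226 (-2.08 ± 0.18). Dppa4 (46 and 91 against 257 to 428) and Fbxo15 (214 and 210 against 716 to 1169) were further members, named after their values were seen. Day 40 lay nearer than day 36 to the CiPSC mean in 21 of the 23 genes.

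Nodal and its feedback inhibitors were lower, within a list of mixed direction. Of 18 primed epiblast and early lineage genes, 8 were lower and 5 higher (median -0.38). Nodal, the TGF-beta family ligand of the epiblast, had 30 and 21 against 394, 469 and 651 (-4.21 ± 0.22, adjusted p = 6.62e-06). Its feedback inhibitors Lefty1 (50 and 26 against 316 to 588, -3.44 ± 0.29) and Lefty2 (92 and 110 against 616 to 1212, -3.21 ± 0.24) were lower too, and so was Zic5 (30 and 42 against 160 to 210, -2.34 ± 0.19). The ligand Gdf3 had 30 and 55 against 179 to 524 (-2.93 ± 0.38). The higher members of that list included the mesoderm factor T (67 and 59 against 0 to 6, 4.86 ± 0.88) and the claudin Cldn6 (1791 and 1612 against 5 to 30, 6.80 ± 0.61). Fgf5, the classical primed marker, had only 6 and 4, and is listed at 0 in CiPSC. The higher count of the list was 2 without day 36 and 3 without day 40.

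Genes of the wider TGF-beta list were mostly higher. Of 25 genes, 14 were higher and 5 lower (median 1.51), and the higher count was 6 without day 36. Ltbp1, which stores latent TGF-beta in the matrix, had 1194 and 1229 against 58 to 100 (3.92 ± 0.21), and the coreceptor Tgfbr3 had 724 and 552 against 60 to 92 (3.05 ± 0.22). FGF signalling genes were mixed, with 5 of 21 higher and 4 lower. The share called higher was near the 21.4% of all genes, and the share called lower was below their 25.4%. As a list, they did not stand out from all genes in these counts. Etv4 and Etv5, transcription factors switched on by FGF and ERK, had 2 and 3 against 56 to 148 (-4.88 ± 0.40) and 281 and 390 against 1209 to 1832 (-2.17 ± 0.20). The ERK phosphatase Dusp4 (75 and 22 against 0 to 5, 4.79 ± 0.81), the receptor Fgfr4 (300 and 210 against 8 to 16, 4.28 ± 0.38) and the mesenchymal ligand Fgf7 (100 and 88 against 5 to 16, 3.26 ± 0.49) were higher. The FGF list had 3 higher members without day 36 and 3 without day 40.

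Most endoderm transcription factors were higher at the end of the course than in CiPSC. Of 14 primitive endoderm transcription factors, 11 were higher and 1 lower (78.6% higher, median 4.67). Gata4 (chromosome 14, 63198922 to 63271692) had 1154 on day 36 and 1557 on day 40, against 0, 11.5 and 30 as the lowest, median and highest CiPSC values (7.62 ± 1.43, adjusted p = 0.00289). Gata6 had 820 and 536 against 1 to 22 (6.86 ± 0.94), and Sox17 had 891 and 653 against 0 to 26 (7.14 ± 1.20). Foxa2, a pioneer factor of endoderm, had 423 and 347 against 1 to 11 (6.66 ± 0.75). Hnf4a, the regulator of the visceral and liver programme, had 255 and 169 against 4 to 13 (4.52 ± 0.47). Klf6 had 4218 and 2039 against 69 to 180 (4.56 ± 0.44), and Sox7 had 30 and 22 and is listed at 0 in CiPSC. In these 7 genes no CiPSC library reached a late one. In MEF Gata6 had 80 and Klf6 had 1229, and the other 5 had 0 to 8. Otx2, the lower member, had 30 and 34 against 48 to 148 (-1.37 ± 0.48), a call that ended under median-ratio rescaling, without either late library and without any of CiPSC 1, 2, 5 and 6.

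Products of visceral endoderm, the yolk sac epithelium that takes up and secretes nutrients, followed. Of 25 tested, 18 were higher and none lower (median 5.50, or 4.44 without the 3 members listed at 0 in all CiPSC libraries). Lrp2, the endocytic receptor megalin, had 2769 on both days, against 42 to 68 (5.73 ± 0.20, adjusted p = 4.97e-06), and its partner Cubn had 358 and 184 against 0 to 20. Afp, alpha-fetoprotein, had 239 and 168 against 0 to 16. Apoa1 (130 and 85), Apoa4 (135 and 51) and Alb (52 and 82), which encode apolipoproteins and albumin, are listed at 0 in all 6 CiPSC libraries. Afp and Cubn were named after their values were seen.

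Genes of the basement membrane, which parietal endoderm secretes and fibroblasts also make, were higher in most members. Of 18 tested, 16 were higher and none lower, and in all 18 both late libraries lay above the 6 CiPSC libraries (median 5.74). Most were also expressed by the starting cells: 17 of 18 had at least 10 in MEF. The list score, the mean of log2(value + 1) over its members, was 11.27 on day 36 and 11.10 on day 40, against 5.59 to 5.96 in CiPSC and 9.48 in MEF. Col4a1 (chromosome 8, 11198423 to 11312826), a chain of type IV collagen whose span overlaps the antisense-oriented Col4a2, stood at the ceiling of 21988 on both days, against 24 to 118 (8.39 ± 0.48) and 5536 in MEF. Lama1 had 11332 and 8316 against 162 to 334 (5.36 ± 0.30), and Lamb1 had 6869 on both days against 100 to 184 (5.65 ± 0.25), both chains of laminin. Sparc, a matrix glycoprotein, had 11327 and 8307 against 518 to 788 (3.92 ± 0.21). Pth1r, the receptor for parathyroid hormone and an early parietal endoderm marker, had 1241 and 1048 against 0 to 5 (9.73 ± 0.76). Its span overlaps the antisense-oriented Myl3, and the strand setting of the counting is not given in the sources used here. Plat, tissue plasminogen activator, had 193 and 121 and is listed at 0 in CiPSC. MEF had 36 for Lama1, 2908 for Lamb1, 11327 for Sparc, 34 for Pth1r and 680 for Plat, so Plat was higher in MEF than on either late day. Nid2 and Hspg2 were the members not called, with 2218 and 2424 against 1006 to 2174 for Nid2 and 1408 and 1535 against 596 to 1302 for Hspg2.

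**Figure D3:**
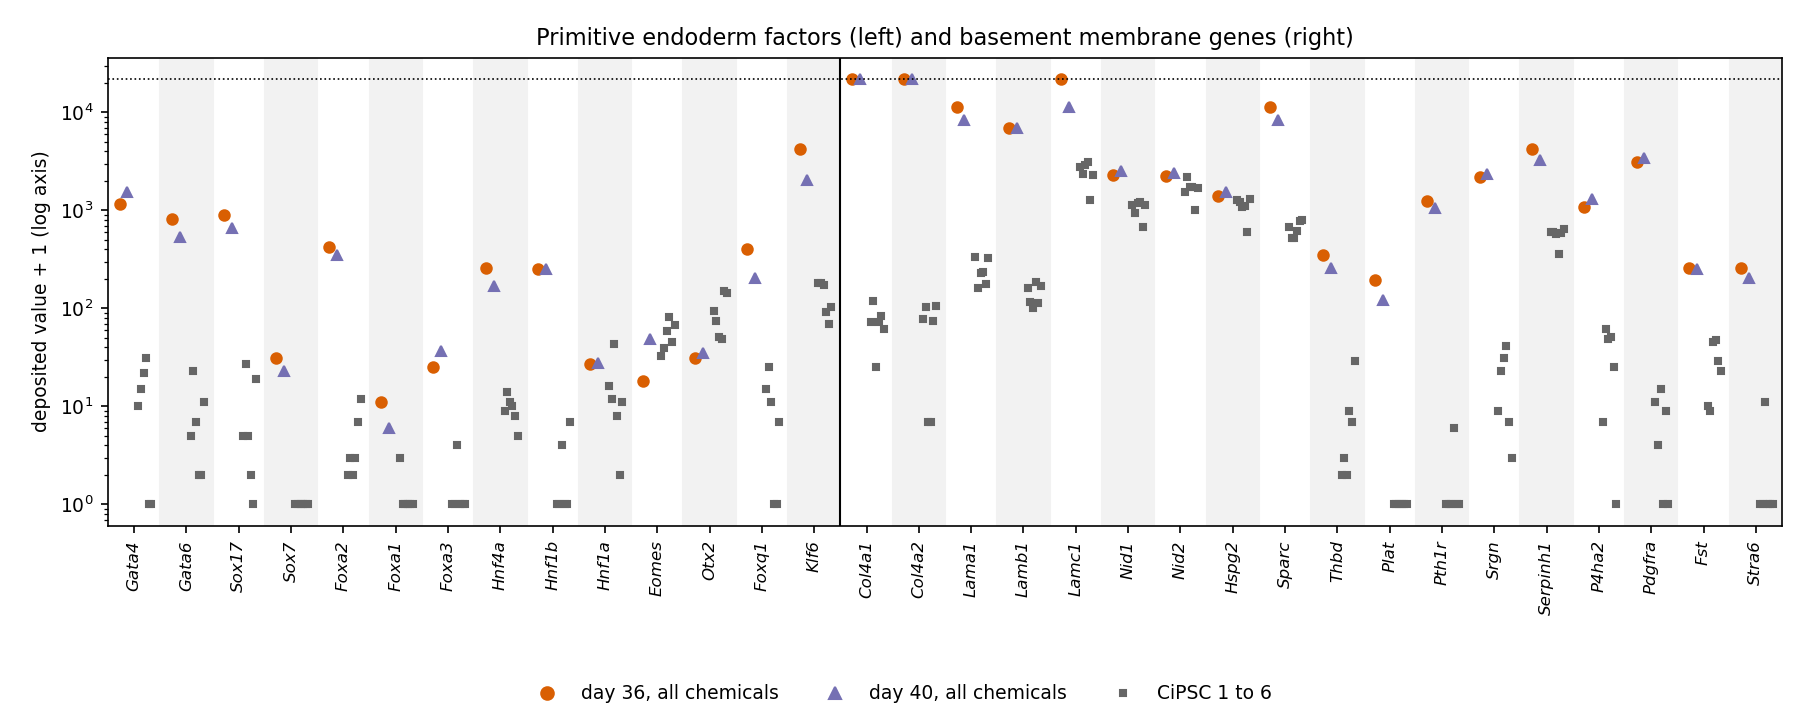
Deposited value + 1 (log axis) of 14 primitive endoderm transcription factors and 18 basement membrane genes on day 36 (circle), day 40 (triangle) and in CiPSC 1 to 6 (squares, from left to right). The dotted line is the ceiling. Gata4, Gata6, Sox17 and the collagen and laminin genes lie above the squares, while Otx2 lies below them.

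Few germline and 2-cell-like genes were called. Of 30 germline and meiosis genes, 8 were lower (26.7%, near the 25.4% of all genes) and none higher, and without day 36 the count was 2. Nanos3, which protects migrating germ cells, had 1 on both days against 10 to 74 (-3.94 ± 0.77). Dazl, a germ cell RNA-binding protein, was not called (192 and 425, against 154, 535 and 1392; adjusted p = 0.399). Of 15 2-cell-like genes, which mark a transient totipotent-like state, 3 were lower and none higher, and none was called without day 36 or without day 40. Their median log2 change was -1.79, and the list score was between 2.96 and 3.48 on the late days, against 4.14 to 6.85 in CiPSC, so the scores did not overlap. Zscan4c had 24 and 34 against 56, 94 and 678 and was not called (-2.33 ± 1.04, adjusted p = 0.0978). Zscan4d had 13 and 14 against 36 to 239 (-2.56 ± 0.74). The CiPSC libraries differed widely here: Zscan4f, named after its values were seen, had 62 and 68 in the late course, against 1343 in CiPSC 2, 1206 in CiPSC 4 and 46 to 190 in the other 4. Copies of this family are nearly identical, so reads may be split between them.

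Fibroblast genes were higher than in CiPSC and, as a list, below the starting cells. Their list score was 8.40 on day 36 and 8.48 on day 40, against 3.60 to 4.81 in CiPSC and 11.28 in MEF. Of 30 fibroblast and mesenchymal genes, all of which had at least 10 in MEF, 23 were higher on days 36 and 40 and 1 was lower (median 4.40, or 4.08 without 3 members listed at 0 in CiPSC). The higher count was 14 without day 36 and 15 without day 40. Col1a1, the main collagen of fibroblasts, had 2762 and 3088 against 24, 84 and 152 (5.39 ± 0.67, adjusted p = 0.000365), and stood at the ceiling in MEF. Col5a2 had 1620 on both days, against 78 to 128 in CiPSC (4.08 ± 0.19) and 11346 in MEF. The proteoglycan Lum (222 and 234) and the protease Fap (62 and 55) are listed at 0 in all CiPSC libraries. Thy1, a fibroblast surface protein, had 269 and 255 against 0 to 62 (4.84 ± 1.49, adjusted p = 0.0269), a call that ended without either late library, and had 2167 in MEF. Eng, the lower member, is a TGF-beta coreceptor with 60 and 82 against 312 to 548 (-2.50 ± 0.25).

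Some regulators and contractile genes of the mesenchyme were higher as well. Among transcription factors of the epithelial to mesenchymal transition, 6 of 10 were higher (3 without day 36), with Zeb2 at 133 and 112 against 0 to 8 (5.91 ± 1.07), Prrx2 at 16 and 13 against 0 to 1 (3.78 ± 0.39) and Twist2 at 20 on both days against 0 in all CiPSC libraries. In MEF these 3 genes had 419, 352 and 418. In the smooth muscle list 7 of 12 genes rose, with 3 left without day 36 and 3 without day 40. Tpm1 had 4216 and 3638 against 203 to 491 (3.92 ± 0.31), Myl9 599 and 550 against 2 to 16 (6.25 ± 0.65) and Tagln 120 and 139 against 0 to 17 (5.90 ± 1.20, lost without either late library). All 3 were far below MEF, where Tpm1 had 11338, Myl9 1241 and Tagln 4504.

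Hox genes, which record the position of a fibroblast along the body, were mostly at low values in both groups. Of 28 tested, 12 were higher and 2 lower, and without day 36 or day 40 the higher count was 5 and 3. The higher members stood at very low values: Hoxc8 had 20 and 12, Hoxd3 had 4 and 9, and Hoxb6 and Hoxb7 had 5 and 3, with all 4 listed at 0 in CiPSC. In MEF Hoxc8 had 220 and Hoxb6 had 68. The lower members were the posterior Hoxb13 (1 and 0 against 6 to 50, -4.16 ± 0.78) and Hoxc13 (9 and 6 against 42 to 88, -2.95 ± 0.36).

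Epithelial genes were not lacking on days 36 and 40, and many exceeded the CiPSC level. Of 26 tested, 15 were higher and none lower (median 2.15), with 8 left without day 36 and 9 without day 40, and 19 under median-ratio rescaling. Cdh1, the epithelial cadherin also needed by stem cells, was not called, with 2634 and 2038 against 1072, 1894 and 3428 (0.26 ± 0.40, adjusted p = 0.618). Krt19 had 1752 and 1512 against 0 to 3 (10.34 ± 0.63, adjusted p = 1.08e-05). Krt8 (2631 and 1985 against 0 to 18) and Krt18 (2550 and 1714 against 0 to 18), named after their values were seen, are the keratin pair of simple epithelia. Ocln of the tight junction had 400 and 223 against 46 to 74 (2.23 ± 0.29), and the splicing factor Esrp1 had 156 and 108 against 12 to 22 (3.01 ± 0.38). Among keratins, desmosomal and junction genes, 10 of 18 were higher and 2 lower. Gja1, the main gap junction protein of fibroblasts, had 893 and 925 against 197 to 320 (2.02 ± 0.19). Gjb5, a gap junction gene, was lower (22 and 46 against 52 to 154, -1.46 ± 0.43), a call lost without day 36.

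Of 10 cadherins other than Cdh1, 3 were higher than in CiPSC and 1 was lower, Cdh4, whose call ended without either late library. Cdh11, the mesenchymal cadherin, had 855 and 706 against 24 to 42 (4.51 ± 0.25, adjusted p = 7.86e-06) and 6860 in MEF. Cdh5, of endothelial junctions, had 154 and 136 and is listed at 0 in CiPSC. In the trophoblast list 6 of 14 were higher and 1 lower (3 higher without day 36). Peg10, a placental gene derived from a retrotransposon, stood at 11331 and at the ceiling of 21988, against 91 to 283 (6.81 ± 0.43). Prl3d1, a placental lactogen, had 49 and 45 and is listed at 0 in CiPSC. Tfap2c had 150 and 192 against 296 to 848 (-1.64 ± 0.36), a call lost without day 36. Of 9 epithelial organ markers 4 rose and 1 fell, with the thyroid and kidney factor Pax8 at 195 and 346 against 1 to 8 (6.03 ± 0.62) and the intestinal mucin Muc13 at 146 and 157 against 1 to 18 (4.92 ± 0.85).

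All 16 AP-1 factors and immediate early genes tested were higher, and in 15 both late libraries lay above every CiPSC library (median 5.46, or 5.22 without the 1 member listed at 0 in CiPSC), with 13 called without day 36 and 14 without day 40. Fosb had 3420 and 2762 against 0, 0 and 30 (10.29 ± 1.38, adjusted p = 0.000527). Junb had 1388 and 1343 against 54 to 98 (4.20 ± 0.26, adjusted p = 1.17e-05). Atf3, of the same leucine zipper family, had 2331 and 1070 against 8 to 26 (6.70 ± 0.49), and Egr2, a zinc finger factor of growth factor response, had 156 and 58 against 0 to 1 (5.76 ± 0.51). MEF was also high in these genes, with 1226 for Fosb, 1535 for Junb and 477 for Atf3. The list score was 9.60 on day 36 and 8.99 on day 40, against 3.51 to 4.47 in CiPSC and 8.67 in MEF.

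In the YAP and TEAD list 13 of 17 genes were higher than in CiPSC and 2 were lower (median 2.01). Cyr61, a classical YAP target, had 3630 and 2545 against 98 to 325 (3.80 ± 0.44), and Crim1 had 3088 and 3233 against 22 to 53 (6.49 ± 0.35). Axl, a receptor kinase, had 106 and 130 against 20 to 33 (2.20 ± 0.30). Tead2, the DNA-binding partner most abundant in early embryos, was lower (260 and 320 against 676 to 867, -1.43 ± 0.12, adjusted p = 5.96e-05), as was Ajuba (304 and 362 against 434 to 592, -0.61 ± 0.13), whose call ended under median-ratio rescaling and without day 36. Of 22 BMP genes, 13 rose and none fell (8 without day 36). Id1, a direct BMP target, had 401 and 272 against 4 to 16 (5.06 ± 0.50), and the receptor Bmpr2 had 558 and 518 against 210 to 255 (1.20 ± 0.11). The ligand Bmp5 had 60 and 118 and is listed at 0 in CiPSC, and the BMP antagonist Nog had 33 and 32 against 0 to 1.

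Targets of Wnt and beta-catenin divided, with 7 of 20 higher and 4 lower, with 3 higher without day 36 or without day 40 and 2 lower without day 36. Higher were the receptor Lgr5 (83 and 62 against 2 to 5, 4.29 ± 0.44), the inhibitor Dkk1 (56 and 24 against 0 to 2, 4.31 ± 0.52) and T. Lower were Cdx1, the secreted inhibitor Notum (68 and 53 against 270 to 526, -2.63 ± 0.24), Tcf7 (123 and 166 against 220 to 420, -1.04 ± 0.25, lost without day 36) and Ccnd1 (220 and 262 against 264 to 760, -1.12 ± 0.35), whose call ended under rescaling, without either late library and without CiPSC 1. Notum overlaps antisense genes in the table.

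Most insulin-like growth factor genes were higher than in CiPSC. Of 17 tested, 14 were higher and 1 lower (median 2.67, 9 higher without day 36 and 9 without day 40), and the list score stood just beyond MEF (8.70), at -8.53% on day 36 and -11.1% on day 40 of the way from MEF to the CiPSC mean, against 4.94 to 5.46 in the CiPSC libraries. Igfbp4 had 2758 and 3082 against 7 to 51 (6.59 ± 0.66), and Igfbp5 had 1136 and 1832 against 6 to 28 (6.40 ± 0.56). Igfbp6 had 54 and 42 and is listed at 0 in CiPSC. The RNA-binding protein Igf2bp1 was the lower member, with 958 and 903 against 1718 to 2284 (-1.17 ± 0.13). Single members had moved far from MEF in both directions, since MEF had 0 for Igfbp1, 798 for Igfbp4, 150 for Igf2bp1, 2545 for Igfbp5 and 260 for Igfbp6.

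Imprinted genes, which are read from 1 parental copy, were more often higher than lower beside CiPSC. Of 33 tested, 15 were higher (45.5%) and 6 lower (18.2%), against 21.4% and 25.4% of all genes (median 1.32). H19, a noncoding RNA (chromosome 7, 142575529 to 142578143), stood at the ceiling on both days, against 3, 30 and 110 in CiPSC (9.64 ± 1.04). Its neighbour Igf2 (142650766 to 142666816), a fetal growth factor, had 5529 on both days, and in CiPSC 14 in CiPSC 2, 32 in CiPSC 5 and 0 in the other 4 (10.94 ± 1.51, adjusted p = 0.00061). The antisense Igf2os overlaps Igf2, and reads of the pair cannot be told apart without strand. MEF had 11331 for H19 and 8314 for Igf2, so both genes were high from the start of the course. Peg3, a zinc finger gene read from the paternal copy, had 3846 on both days against 177 to 324 (3.88 ± 0.21), Grb10 had 1448 and 1390 against 171 to 304 (2.70 ± 0.19), and Sgce, next to Peg10, had 590 and 546 against 16 to 50 (3.98 ± 0.40). Cdkn1c, a cell cycle inhibitor expressed from the maternal copy, had 879 and 508 against 0 to 28 (7.78 ± 1.32). The lower members included Peg12 (16 and 14 against 65 to 150, -2.55 ± 0.36), Snrpn (274 and 320 against 508 to 792, -1.04 ± 0.17) and the amino acid transporter Slc38a4 (394 and 665 against 918 to 1318, -1.11 ± 0.21). Snrpn shares its span with Snurf, so its reads may be split.

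Interferon response genes were broadly higher, although the labels name no interferon among the chemicals. Of 26 tested, 21 were higher and 2 lower (80.8% higher, median 3.03), with 13 higher without day 36 and 16 without day 40. Isg15, a ubiquitin-like protein induced by interferon, had 216 and 170 and is listed at 0 in all CiPSC libraries. Ifit3, an antiviral RNA sensor, had 112 and 152 against 0 to 2 (6.01 ± 0.51, adjusted p = 5.42e-05), Usp18 148 and 134 against 0 to 3 (6.81 ± 0.61) and the guanylate-binding protein Gbp3 108 and 77 against 1 to 2 (5.23 ± 0.41). MEF had 178, 208, 40 and 62 for these 4 genes. The lower members were Ifitm2 (490 and 574 against 912 to 1116, -0.97 ± 0.11) and Ifitm1 (236 and 303 against 390 to 1108, -1.09 ± 0.34), whose call ended under rescaling and without either late library. In the MHC class I list 9 of 16 were higher and none lower. B2m, the invariant chain of MHC class I (chromosome 2, 122147686 to 122153083), had 2550 and 2764 against 24, 47 and 100 (5.72 ± 0.47, adjusted p = 4.65e-05). The class I heavy chain H2-D1 had 782 and 624 against 106 to 195 (2.35 ± 0.25), and Tapbp, which loads peptides, had 1554 and 1224 against 64 to 219 (3.28 ± 0.45). B2m and Tapbp overlap other genes in the table.

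Promoters of 4 of these genes are shown because they share the core of the interferon-stimulated response element, searched as GAAANNGAAA on both strands. It was found in 13 of the 21 interferon list promoters available (61.9%) and in 4 of 13 of the MHC class I list (30.8%), against 3.49% of 27025 promoters of the same length. These shares depend on which genes were listed and not on the values in the libraries. Of the 13 interferon genes with a match, 10 were called higher, 1 lower (Ifitm2) and 2 not called. Over the whole list 21 of 26 were higher (80.8%), so genes with a match were not called higher more often. Bst2, which tethers virus particles, was picked for its match and had 1580 and 1532 against 30 to 131. The windows run from 250 bases before to 50 after the gene's start (RefSeq, GRCm38.p6), with matches in capitals: Isg15 at chr4:156200769-156201068 (minus strand), Ifit3 at chr19:34583279-34583578 (plus), Bst2 at chr8:71537423-71537722 (minus) and B2m at chr2:122147437-122147736 (plus).
Isg15: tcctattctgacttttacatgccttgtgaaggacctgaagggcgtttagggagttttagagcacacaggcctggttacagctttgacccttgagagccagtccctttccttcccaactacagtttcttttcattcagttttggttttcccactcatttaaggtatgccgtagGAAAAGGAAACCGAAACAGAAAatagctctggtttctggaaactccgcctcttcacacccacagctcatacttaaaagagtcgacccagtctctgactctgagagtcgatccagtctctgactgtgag
Ifit3: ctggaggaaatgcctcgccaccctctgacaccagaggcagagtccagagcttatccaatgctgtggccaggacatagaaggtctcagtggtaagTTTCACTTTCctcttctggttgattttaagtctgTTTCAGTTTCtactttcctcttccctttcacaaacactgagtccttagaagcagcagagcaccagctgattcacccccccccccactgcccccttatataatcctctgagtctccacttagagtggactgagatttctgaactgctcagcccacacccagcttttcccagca
Bst2: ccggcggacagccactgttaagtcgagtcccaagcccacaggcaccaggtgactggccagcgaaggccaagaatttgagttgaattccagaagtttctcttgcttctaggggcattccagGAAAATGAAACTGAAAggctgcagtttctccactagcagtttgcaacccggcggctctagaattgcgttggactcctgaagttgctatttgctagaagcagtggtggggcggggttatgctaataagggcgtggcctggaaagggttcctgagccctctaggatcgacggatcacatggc
B2m: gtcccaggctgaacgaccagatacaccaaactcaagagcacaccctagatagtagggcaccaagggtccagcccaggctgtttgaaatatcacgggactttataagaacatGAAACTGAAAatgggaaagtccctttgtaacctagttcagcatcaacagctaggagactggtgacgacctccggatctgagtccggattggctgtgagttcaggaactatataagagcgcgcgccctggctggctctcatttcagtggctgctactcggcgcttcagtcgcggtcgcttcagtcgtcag
In Isg15 and Bst2 several matches run into each other as 1 stretch, while B2m holds a single match.

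Cell cycle genes were lower almost without exception. Of 37 tested, 35 were lower and none higher (94.6%, median -1.62), and 34 were lower under median-ratio rescaling. Ccne1, the cyclin that starts S phase, had 105 and 72 against 473, 614 and 777 (-2.83 ± 0.20, adjusted p = 2.51e-05). Rrm2, which makes deoxynucleotides, had 328 and 427 against 1985 to 2768 (-2.64 ± 0.17), Cdc20, an activator of mitotic exit, 152 and 190 against 846 to 1317 (-2.67 ± 0.17), and the mitotic cyclin Ccnb1 328 and 420 against 1288 to 1835 (-2.12 ± 0.15). The list score was 7.84 on day 36 and 8.05 on day 40, against 9.17 to 9.62 in CiPSC and 7.04 in MEF. Among cyclin-dependent kinase inhibitors, 1 of 8 was higher (Cdkn1c, above) and 2 were lower. Cdkn2d had 14 and 24 against 63 to 105 (-2.03 ± 0.29), and Cdkn3 had 10 on both days against 24 to 50 (-1.90 ± 0.36). Cdkn1a (862 and 868 against 867 to 1535, adjusted p = 0.353) and Cdkn2a (228 and 236 against 116 to 232, adjusted p = 0.0749) were not called.

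Promoters of 3 mitotic genes are shown for 2 words they share, the CCAAT box and the CHR element TTTGAA, which with it is known to time G2 and M phase genes. On both strands, CCAAT was found in 23 of the 30 cell cycle promoters available (76.7%), against 37.9% of all 27025, and TTTGAA in 11 of 30 (36.7%), against 18.1%. The genes were picked for their matches. Cdk1, the kinase of mitosis, had 168 and 216 against 541 to 1037; Ccnb2 had 144 and 177 against 415 to 628; and Top2a, which untangles chromosomes, had 788 and 1170 against 2042 to 3854. All 3 were called lower, with log2 changes of -1.98 ± 0.23, -1.67 ± 0.18 and -1.68 ± 0.26. The windows are those of the RefSeq table (GRCm38.p6): Cdk1 at chr10:69352863-69353162, Ccnb2 at chr9:70421505-70421804 and Top2a at chr11:99024140-99024439, all on the minus strand, with both words in capitals.
Cdk1: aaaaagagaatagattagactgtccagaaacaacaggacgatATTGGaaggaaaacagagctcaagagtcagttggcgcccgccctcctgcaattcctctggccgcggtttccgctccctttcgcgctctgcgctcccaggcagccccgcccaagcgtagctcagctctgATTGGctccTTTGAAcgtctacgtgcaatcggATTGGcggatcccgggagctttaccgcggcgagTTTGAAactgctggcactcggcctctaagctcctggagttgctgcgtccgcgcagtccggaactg
Ccnb2: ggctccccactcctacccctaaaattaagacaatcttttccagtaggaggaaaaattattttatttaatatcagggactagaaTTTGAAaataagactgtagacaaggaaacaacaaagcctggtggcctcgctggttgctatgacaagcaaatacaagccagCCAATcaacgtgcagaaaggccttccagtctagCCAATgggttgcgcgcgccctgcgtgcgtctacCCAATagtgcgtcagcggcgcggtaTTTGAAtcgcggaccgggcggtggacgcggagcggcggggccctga
Top2a: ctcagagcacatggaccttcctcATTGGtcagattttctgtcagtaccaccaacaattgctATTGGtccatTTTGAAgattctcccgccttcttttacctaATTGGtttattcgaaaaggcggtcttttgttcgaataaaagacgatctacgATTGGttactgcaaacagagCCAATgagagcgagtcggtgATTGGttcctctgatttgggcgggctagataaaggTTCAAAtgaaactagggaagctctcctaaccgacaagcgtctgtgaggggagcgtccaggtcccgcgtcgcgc
Top2a holds 6 CCAAT words within this window, and Cdk1 and Ccnb2 hold 3 each.

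In the p53 list more genes were lower than higher. Of 26 tested, 12 were lower and 1 higher, with 6 lower without day 36, 7 without day 40 and 7 under median-ratio rescaling. Trp53 itself had 488 and 490 against 1437 to 2167 (-1.82 ± 0.15, adjusted p = 4.26e-05). Its relative Trp73 had 5 and 6 against 55 to 197 (-4.02 ± 0.49), and the metabolic target Tigar had 64 and 86 against 370 to 454 (-2.43 ± 0.15). Btg2, an antiproliferative gene that also answers to growth factors, was the higher member (2416 and 1648 against 200 to 396, 2.91 ± 0.27). Without CiPSC 2 the higher count was 4. The p53 target Ccng1, named after its values were seen, had 1239 and 1612 in the late course, against the ceiling in CiPSC 2 and 1980 to 3627 in the other CiPSC libraries. In the list of senescence and inflammatory secretion, 12 of 21 genes were higher than in CiPSC and none was lower. The chemokine Cxcl1 had 559 and 434 against 0 to 5 (8.02 ± 0.70), and Lcn2, an acute-phase protein, had 102 and 90 against 2 to 7 (4.64 ± 0.50). Cxcl12 (58 and 79) and Cxcl2 (30 and 18) are listed at 0 in CiPSC.

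Some chromatin enzymes were lower on days 36 and 40 and a few were higher. In the DNA methylation list 8 of 17 were lower and 2 higher (median -1.04), with 0 higher without day 36 or without day 40. The de novo methyltransferase Dnmt3b had 157 and 92 against 416 to 570 (-1.94 ± 0.22), the remodeller Hells 520 and 554 against 1496 to 2110 (-1.74 ± 0.15) and Zfp57, which guards imprinted methylation, 131 and 167 against 842 to 2038 (-3.12 ± 0.30, adjusted p = 0.000101). Tet1, which oxidises methylcytosine, had 195 and 330 against 827 to 2332 (-2.36 ± 0.40), whereas Tet3 had 349 and 316 against 64 to 189 (1.73 ± 0.40), a call lost without either late library. Dnmt3l, a cofactor of de novo methylation, was not called (58 and 159 against 24 to 125, adjusted p = 0.277). Of 35 Polycomb and histone methylation genes, 14 were lower and 4 higher (9 lower and 2 higher without day 36, 2 higher without day 40). Eed, a core subunit of the PRC2 complex, had 206 and 259 against 514 to 824 (-1.53 ± 0.19), its partner Mtf2 506 and 630 against 1476 to 2562 (-1.79 ± 0.20), and Cbx2 of PRC1 28 and 60 against 166 to 273 (-2.25 ± 0.30). Ezh1, the PRC2 enzyme of resting cells, was higher (369 and 522 against 94 to 192, 1.71 ± 0.27).

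Metabolic genes split by pathway. Oxidative phosphorylation had 42 of 78 genes lower and none higher (53.8%, median -0.73), with 32 lower under median-ratio rescaling, 23 without day 36 and 27 without day 40. Cox7a1, a cytochrome oxidase subunit, had 5 and 9 against 95 to 139 (-3.86 ± 0.28), and Atp5b, of the ATP synthase, had 6084 and 6868 against the ceiling in all 6 CiPSC libraries. Cholesterol synthesis had 12 of 24 genes lower and none higher, but 7 under rescaling or without CiPSC 1, 5 without day 36 and 6 without day 40. Fdps had 374 and 386 against 733 to 1365 (-1.44 ± 0.21). Glycolysis had 9 of 23 genes higher and 3 lower, with 3 higher without day 40 and 1 lower without day 36. The glucose transporter Slc2a1 had 5522 and 6078 against 848 to 1512 (2.27 ± 0.23, adjusted p = 0.000132), and the lactate transporter Slc16a1 had 2039 and 1320 against 506 to 864 (1.29 ± 0.22). Its relative Slc2a3 was lower (2764 and 4210 against 5529 to 11332, -1.02 ± 0.32), a call lost under rescaling, without either late library and without CiPSC 1. Gapdh stood at 11331 on both days, against the ceiling in all 6 CiPSC libraries, and its call ended without either late library.

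Of 26 lysosomal and autophagy genes, 17 rose and 2 fell (median 1.47), with 1 lower without either late library and under rescaling. Hexa, which degrades gangliosides, had 1290 and 1444 against 224 to 314 (2.39 ± 0.15), and Lamp2, of the lysosomal membrane, had 2212 and 2414 against 177 to 276 (3.30 ± 0.18). Heat shock genes divided evenly, with 6 of 15 higher and 6 lower (3 higher without day 36). The mitochondrial chaperonins Hspd1 (2215 and 2330 against 8314 to 11331, -2.17 ± 0.20) and Hspe1 (460 and 532 against 1555 to 2762, -1.93 ± 0.22), which share a promoter region and overlap, were lower. The small chaperone Cryab (801 and 642 against 8 to 38, 5.49 ± 0.53) and the stress-induced Hspa1b (342 and 260 against 30 to 65, 2.53 ± 0.33) were higher. Of the 4 cytosolic ribosomal protein genes measured, 2 were lower, Rplp2 with 2282 on both days against 3850 to 5536 and Rpsa with 4504 and 4962 against 6078 to 6863, the second only without rescaling, with both late libraries and with CiPSC 1.

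Of 20 retinoic acid genes, 8 rose and 2 fell, with 5 higher without day 40. Cyp26a1, the enzyme that clears retinoic acid, had 714 and 558 and is listed at 0 in CiPSC and in MEF. Stra6, the receptor that takes up retinol, had 259 and 203 against 0 to 10 (7.27 ± 0.96), and Rdh10, which makes retinal, had 251 and 192 against 32 to 60 (2.33 ± 0.31). Aldh1a1 had 120 and 110 and is listed at 0 in CiPSC. The receptor Rarg was lower (51 and 76 against 170 to 477, -1.98 ± 0.39, lost without day 36), and so was Stra8, a gene of meiotic entry (24 on both days against 42 to 244, -2.26 ± 0.59, lost without either late library).

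Xist was higher in the late course, and the Y-linked genes Ddx3y and Uty divided the CiPSC libraries. Xist, the noncoding RNA that coats an inactive X chromosome (X, 103460366 to 103483254), had 1476 and 1230 against 9, 18.5 and 29 (6.27 ± 0.48, adjusted p = 3.41e-05), and 398 in MEF. Tsix, its antisense partner, is listed at 0 on both days and had 3 to 38 in CiPSC, although reads of the pair cannot be told apart without strand. The Y-linked helicase Ddx3y had 410 and 279 in the late course, 446 in CiPSC 3, 476 in CiPSC 4, 48 in CiPSC 5 and 0 in CiPSC 1, 2 and 6. Uty had 195 and 203, against 210 and 202 in CiPSC 3 and 4, 52 in CiPSC 5 and 0 to 4 in CiPSC 1, 2 and 6. Xist and Y-linked transcripts occurred in the same late libraries, and the CiPSC libraries differed among themselves in Ddx3y and Uty. The Y-linked Kdm5d did not divide them, with 192 on both late days against 48 to 88 in CiPSC (1.49 ± 0.24, adjusted p = 0.00148). Of 26 genes placed on the Y chromosome, 1 was called higher and 14 lower (53.8%, median log2 change -1.86). Neither Ddx3y nor Uty was called (adjusted p = 0.221 and 0.212), and both were named after their values were seen.

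The same CiPSC libraries differed over the X chromosome. The median X-linked gene, over 672 tested, lay 0.44 and 0.46 log2 units below the CiPSC mean on days 36 and 40. It lay 0.42 and 0.45 below that mean in CiPSC 3 and 4 as well, and at 0.22, 0.07, 0.29 and 0.31 in CiPSC 1, 2, 5 and 6, while the autosomal median lay between -0.08 and 0.04 in all 8 libraries. Of X-linked genes, 73 were called higher (10.9%) and 173 lower (25.7%) against all 6 CiPSC libraries. Over all genes these shares were 21.4% and 25.4%. The median log2 change of X-linked genes was -0.43. Against CiPSC 3 and 4 alone it was 0, with 20.3% higher and 17% lower, beside 20.4% and 22.7% of all genes. Without CiPSC 3 and 4 it was -0.67, with 9.73% higher and 36.8% lower, beside 19.9% and 23% of all genes. The split was made after the data were seen and follows the X-linked levels given above. Both refits therefore restate that difference and are no separate support for it. Eif2s3x, an X-linked translation factor, had 1195 and 1292, against 1620 and 1880 in CiPSC 3 and 4 and 2637 to 3854 in the others (-1.05 ± 0.32), and its call ended under rescaling and without either late library.

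**Figure D4:**
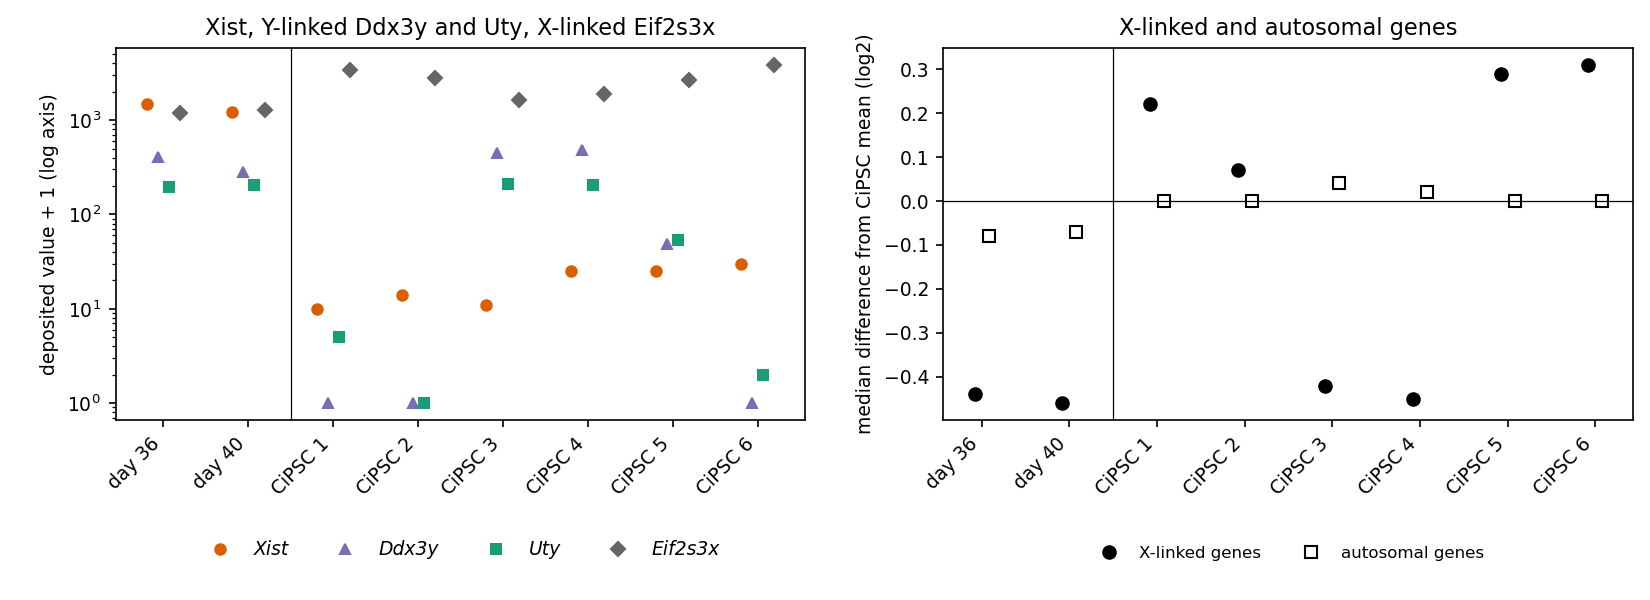
Left, deposited value + 1 (log axis) of Xist, the Y-linked Ddx3y and Uty and the X-linked Eif2s3x in the day 36, day 40 and 6 CiPSC libraries. Right, median difference of 672 X-linked genes (filled) and 15279 autosomal genes (open squares) from the CiPSC mean on the log2 scale, with CiPSC 3 and 4 near the late libraries and CiPSC 1, 2, 5 and 6 above 0.

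Many called genes had stood near their late level earlier, near meaning within 1 log2 unit of the late mean. Only 5663 of the 7548 called genes differed from CiPSC by at least 1 unit. For the rest, a value near the late mean can also lie at the CiPSC level. No such shares were computed for genes not called, so those below have no background. Of the 3450 genes called higher, 1666 (48.3%) had a MEF value within 1 log2 unit of the late mean, 738 (21.4%) were higher still in MEF, and 1046 (30.3%) were lower in MEF by over 1 unit and so had gained level during the course. Igfbp1, Car4, Aqp8, Cyp26a1 and Sox17, all at 0 in MEF, belong to the last kind, and Col1a1, Thy1 and Lum to those higher still in MEF. Of the 4098 called lower, 2643 (64.5%) had a MEF value within 1 unit of the late mean, 830 (20.3%) were lower still in MEF, and 625 (15.3%) were higher in MEF by over 1 unit. On day 30 already, 91.3% of the genes called higher and 86.7% of those called lower lay within 1 unit of the late mean. Nanog (32), Sox2 (11) and Fgf4 (0) on day 30 were among the exceptions.

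Between day 36 and day 40 more called genes moved towards CiPSC than away. Day 40 was nearer than day 36 to the CiPSC mean for 2148 of the genes called higher (62.3%) and for 2395 of those called lower (58.4%), against 50.4% of the genes not called. A difference of over 1 log2 unit between the days was found in 6.46% of the genes called higher and 6.86% of those called lower. Among genes not called the share was 11.8%. Days 36 and 40 form the tested group, so a gene that differs between them is less readily called. With 1 library a day, the change from day 36 to day 40 has no replicate check. The path from MEF to the CiPSC mean was taken on the log2 scale of the list scores. Along it, the core pluripotency score had covered 75.2% on day 36 and 79.1% on day 40, and the naive score 71.3% and 78.6%. Other pluripotency-associated genes had covered 59.3% and 69.6%, DNA methylation genes 60.4% and 73.7%, and Polycomb genes 73.4% and 91.6%. Germline genes stood at 83.5% and 92.3%. Cell cycle genes had covered 32.8% and 41.4%, and fibroblast genes 41.5% and 40.3%. The AP-1 score lay outside the path, at -19.8% and -6.83%, since it was above MEF on both days. These are shares of a log2 gap and not of the deposited values. Summed values of the core factors were 5253 and 6987, against 15971 to 25456 in CiPSC. Those of the naive factors were 8732 and 8391 against 12607 to 17788, with 5 members called higher and 13 lower. Other pluripotency-associated genes summed to 6465 and 9548, against 32025 to 48745.

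**Figure D5:**
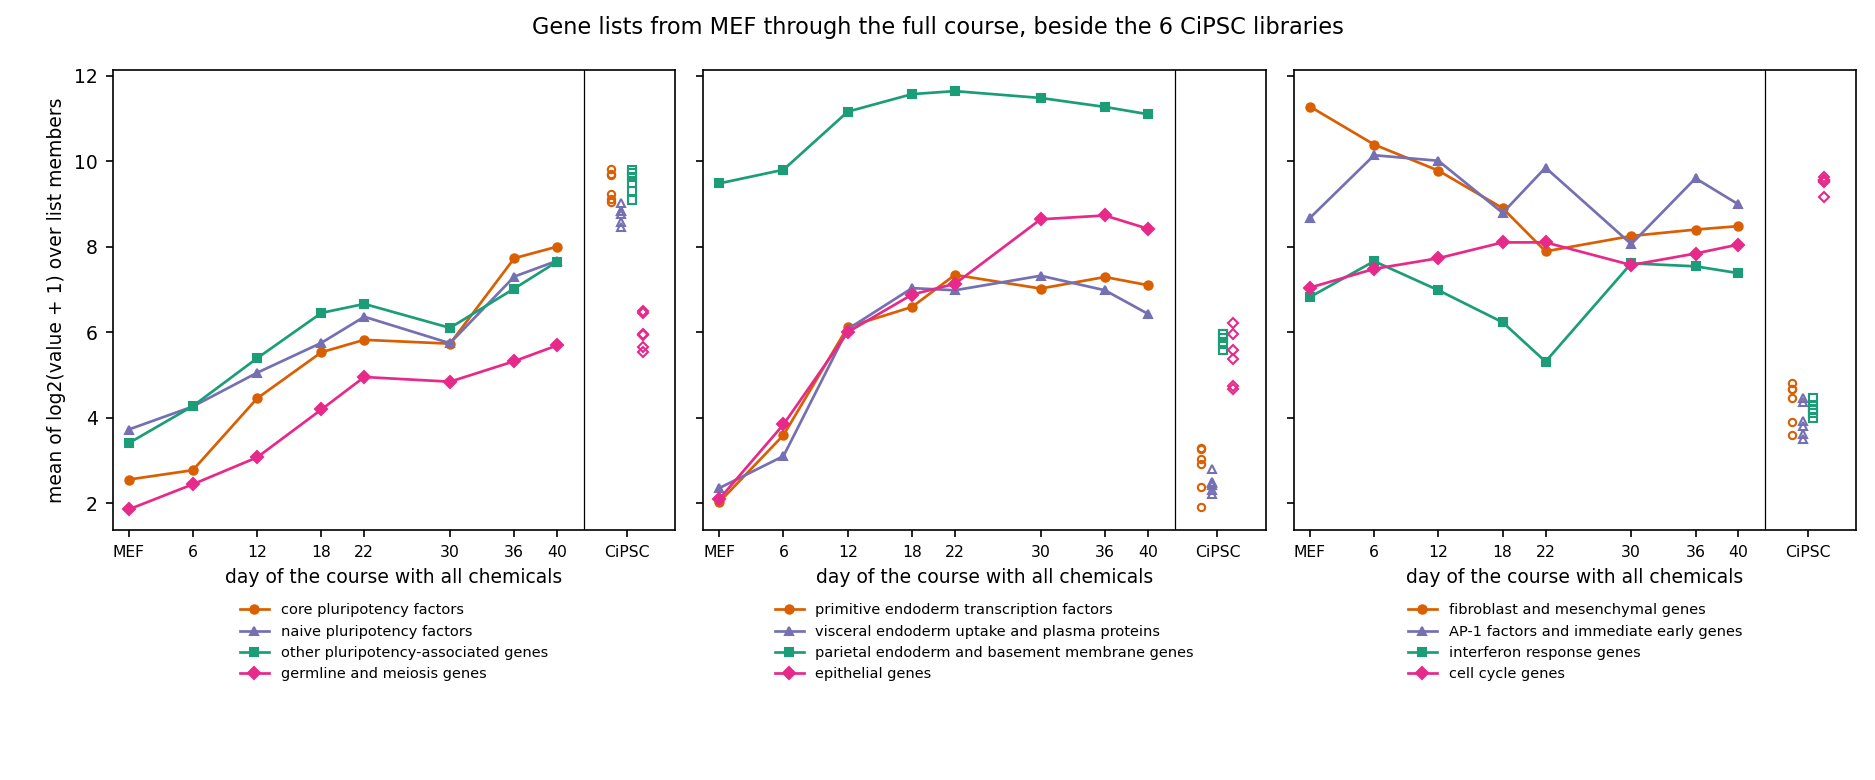
Mean of log2(value + 1) over the members of 12 gene lists in MEF, on days 6 to 40 of the course with all chemicals (filled symbols joined by lines, 1 library a day) and in the 6 CiPSC libraries (open symbols, right of the line). Pluripotency scores climb after day 30 to below CiPSC, endoderm scores stay far above CiPSC from day 12, and the AP-1 and interferon scores on day 40 are near MEF and above CiPSC.

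Markers of other cell types that the cultures could hold differed in both directions. Macrophage and blood markers summed to 226 and 220 over 7 genes, against 358 to 703 in CiPSC, with 4 higher and 1 lower (2 higher and 2 lower without day 36). That order turned without Laptm5, since the other 6 markers summed to 222 and 208, against 35 to 83. Lyz2 had 8 and 4, against 1686 in MEF. Neural markers summed to 294 and 554 over 13 genes, against 1110 to 1989, with 1 higher and 3 lower (Tubb3 at 38 and 90 against 270 to 860, -3.01 ± 0.50). Skeletal and cardiac muscle markers summed to 206 and 145 over 9 genes, against 212 to 463 (4 higher, 1 lower), or to 188 and 120 against 40 to 133 without the giant sarcomere protein Ttn. Adipocyte markers summed to 478 and 438 over 6 genes, against 78 to 164 (5 higher), with Pparg at 63 and 40 against 0 in CiPSC. Cartilage and bone markers summed to 1013 and 1306 over 10 genes, against 1748 to 2792 (6 higher, 1 lower). The lower one, Alpl, is alkaline phosphatase, which stem cells also carry (420 and 759 against 1580 to 2545). Without Alpl the cartilage and bone sums were 593 and 547, against 120 to 249. Endothelial markers summed to 6150 and 6148 over 11 genes, against 746 to 1309 (4 higher, 4 lower; 2 lower without either late library and under rescaling), of which Flt1 alone made 5530. Without Flt1 the endothelial sums were 620 and 618, against 746 to 1299. Without Pecam1, the member highest in CiPSC, they were 6036 and 5926, against 342 to 789. Leaving out the member highest on the late days kept the order of 2 other lists. Macrophage sums without Cd68 were 98 and 72, against 316 to 646. Muscle sums without Acta1 were 146 and 111, against 212 to 463. The genes left out of these sums were chosen after their values were seen. Pecam1, shared by endothelium and naive stem cells, was lower (114 and 222 against 404 to 540, -1.63 ± 0.23). Of these marker genes, 1 neural, 1 macrophage, 2 endothelial, 1 muscle, 2 adipocyte and 3 cartilage or bone genes are listed at 0 in all 6 CiPSC libraries, and none on both late days. The part of such cells in the results above was not tested.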

How the data were processed

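RNA-seq libraries came from total RNA taken with TRIzol and a TruSeq RNA kit, read on a NextSeq 500, per the labels' protocols. The submitters' processing notes name bcl2fastq, RSEM, Bowtie2 and mm10, without versions, roles or the strand setting. The deposited table holds 16718 genes in 26 libraries as whole-number scores that the authors had normalized to 1 distribution, so no count test was possible and depth is unknown. From there, genes whose mean across the 8 compared libraries reached 1 were tested on log2(value + 1) with limma 3.58.1 (R 4.3.3, intensity trend), and calls are adjusted p-values (Benjamini-Hochberg) below 0.05. The design was without covariates. Log2 changes are days 36 and 40 minus CiPSC, given with their SE, and understate the change of low genes. Members and gene lists were chosen with earlier results of these data known. The genes named are the 12 largest rises and falls with groups apart, up to 4 called genes per list and direction by adjusted p, and a fixed set of markers; others are said to be picked after their values were seen. Alternatives were another pseudocount (5), a stricter (5) or no filter, median-ratio rescaling, no trend, a minimum log2 change of 1, each library left out, and, added after seeing the data, CiPSC 3 and 4 left out. Gene spans are GENCODE M21 on GRCm38, and promoter sequences are from RefSeq. Some members of the lists are counted but not reported here by name.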

Additional observations from a re-analysis of the deposited data

Results flagged for a closer look

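For 196 named genes with any spread among the CiPSC libraries, the gap between the most distant library and its nearest neighbour was taken. As a share of the log2 range, this gap exceeded Dixon's critical value in 22 of these genes. Chance flags about 1 in 20 where values are continuous and follow a normal curve. Whole numbers near 0 break this, since a gene at 0 in all but 1 CiPSC library always exceeds the critical value. The 22 genes can therefore not be set against that rate. CiPSC 2 was the library in 6 of them. There Ccng1 stood at 21988, against 1980 to 3627 in the others, Tpm1 at 491 against 203 to 239, Ifitm1 at 1108 against 390 to 570, Ccnb1 at 1288 against 1614 to 1835, Cdkn3 at 24 against 41 to 50 and Cdh4 at 4 against 55 to 75. CiPSC 5 stood apart in Hspg2 (596 against 1080 to 1302), Gja1 (320 against 197 to 227), Lcn2 (7 against 2 to 3) and Afp (16 against 0). CiPSC 1 stood apart in Fgf4 (1272 against 884 to 992), and CiPSC 4 in Igfbp4 (7 against 26 to 51) and Pth1r (5 against 0). CiPSC 6 did so in Sgce (16 against 33 to 50), and CiPSC 3 in Stra6 (10 against 0). The other 7 genes were at 0 to 3 in all CiPSC libraries. They were Gm37385 and Usp18 (3 in CiPSC 1), Krt19 (3 in CiPSC 3), Prrx2 (1 in CiPSC 3), Egr2 and Ifit3 (0 in CiPSC 3) and Dkk1 (0 in CiPSC 1).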

How the results depend on the processing

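Over all genes, the calls numbered between 4381 (without day 36) and 7738 (without CiPSC 5) when 1 library was left out, those higher between 1961 and 3503 and those lower between 2420 and 4235. Without a late library the lone remaining one is assumed to vary like CiPSC. Of the calls, 4296 were kept in the same direction without day 36, 4920 without day 40 and 6617 under median-ratio rescaling, which gave 7479 calls. The remaining alternatives gave 7624 (pseudocount 5), 7207 (mean of at least 5), 7606 (no filter), 7235 (no trend) and 5663 (log2 change of at least 1), and without CiPSC 3 and 4 there were 6911. No named gene changed direction. Of 273 named genes, 228 kept the same result, called or not called, in every alternative that tested them. Of the 266 that were called in the main fit, 44 lost the call in at least 1 alternative. The cause of these losses was not tested. No paired analysis was possible because the replicate numbers of the 2 late libraries follow accession order and pair with no CiPSC library. Depth is not given, so what it limits could not be judged.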
